A study of Mus musculus with 2 samples.

Results

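The 10 endothelial marker genes Vwf, Pecam1, Cdh5, Kdr, Flt1, Tek, Tie1, Esam, Eng and Plvap were compared between pancreatic islets of RbΔK7 mutant mice and of control mice. They were chosen as genes that mark the cells lining blood vessels, and a probe was taken where the array files give one of these names. They make up 10 of the 34844 gene names on the array and have 15 probes. RbΔK7 is a knock-in allele of the retinoblastoma protein Rb that resists phosphorylation. The labels call the other islets control and give no strain, age, sex or number of animals per sample. There were 2 arrays of 2 colours, each carrying 1 mutant sample labelled with Cy5 (red) and 1 control sample labelled with Cy3 (green). The samples were harvested independently, from islets released with collagenase and picked by hand. Mutant RNA was in the Cy5 channel on both arrays, so that a bias of the dye and a difference of genotype cannot be told apart.

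Islets are among the most densely vascularised tissues of the body, and their capillaries are fenestrated. Vascular endothelial growth factor A from endocrine cells acts on the receptor tyrosine kinase VEGFR2, the product of Kdr, while the product of Flt1 binds the same ligand tightly and signals weakly. Angiopoietins act on Tek (Tie2), with which the related receptor Tie1 associates. The other members are parts of the vessel wall: the clotting protein von Willebrand factor (Vwf), the junction proteins PECAM-1, VE-cadherin (Cdh5) and ESAM, the TGF-beta co-receptor endoglin (Eng), and Plvap, which forms the diaphragms of fenestrae and caveolae.

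The probes that the results turn on are shown first, because 4 of the genes have several probes and these do not all read alike. Each line holds the first 30 of a probe's 60 bases, 5′ to 3′, as the array files give them.
Vwf probe 1: caagtgaggcctgtgcagctacagcggatt
Vwf probe 2: tagttaaacagaacaacagtgaagggcgga
Kdr probe 1: tgtttaaatggaagtggtcctgtcccggct
Kdr probe 2: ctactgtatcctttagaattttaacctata
Flt1 probe 1: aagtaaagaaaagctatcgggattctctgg
Flt1 probe 2: ggagggtactgccgttcctgtgtggtattt
Plvap probe 1: tttccagcctccctcttaaaggccactagg
Plvap probe 2: attcaagaaaaggatcctggagtctcagcg
Probes of a gene are numbered by brightness. On mm9, the build of the files, Vwf probe 1 lies at chr6:125636551-125636610 on the plus strand and was designed on the transcript NM_011708. Vwf probe 2 lies 94.4 kb upstream at chr6:125542106-125542165, on a separate transcript model, ENSMUST00000112253. Both Kdr probes were designed on NM_010612 from the minus strand, probe 1 at chr5:76330395-76330454 and probe 2 at chr5:76329309-76329368, which is 1086 bases further towards the 3′ end. Flt1 probe 1 lies at chr5:148373791-148373850, and probe 2 at chr5:148446872-148446931 on the transcript model ENSMUST00000110529. Plvap probe 1 is at chr8:74021877-74021936 and probe 2 at chr8:74030739-74030798, both on the minus strand. Exon and UTR annotation of mm9 was not used here.

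Tek and Tie1 encode related receptors, and their probes, shown whole, share the most bases between any 2 of the 10 genes. Capitals mark identical bases in an alignment without gaps.
Tek: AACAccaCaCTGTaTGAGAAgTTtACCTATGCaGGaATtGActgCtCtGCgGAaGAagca
Tie1: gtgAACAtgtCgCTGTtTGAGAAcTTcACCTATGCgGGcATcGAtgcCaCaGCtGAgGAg
The Tek probe lies at chr4:94540624-94540683 on the plus strand and the Tie1 probe at chr4:118144132-118144191 on the minus strand. They share 39 of 57 aligned bases (68.4%). By number of identical bases the next pair, a Flt1 and a Plvap probe, shares 30 of 59.

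Across both arrays 22263 of 55681 gene probes were bright enough to be tested, that is, well above background in the mutant or the control channel of each array. Between 41.0% and 48.2% of spots were well above background in the mutant samples, and between 37.0% and 38.1% in the control samples. Tested probes had log2 ratios of mutant over control with a median of 0.02 on each array and an SD of 0.293 (replicate 1) and 0.478 (replicate 2). The ratios of the 2 arrays correlated weakly across these probes (Pearson's r = 0.235, across probes that share samples and arrays and are not independent replicates). A pair of ratios leaves 1 residual degree of freedom for a probe, so limma's test borrows most of its spread from the other probes.

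Of the 15 endothelial marker probes 14 were tested. The exception was Flt1 probe 3 (AK005502), which was not well above background in any of the 4 samples. Of the 14 tested probes, 12 (85.7%) had a ratio above 0 on both arrays, against 32.3% of all tested probes. A ratio below 0 on both arrays was found for 1, the brighter Kdr probe, against 25.3% of all tested probes, and Flt1 probe 1 had opposite signs. The median log2 ratio of the 14 probes was 0.34 for replicate 1 and 0.44 for replicate 2, and the median of their means was 0.38 (1.30-fold). A single probe passed the threshold upward (7.14% of the 14, against 0.355% of all tested probes), the brighter probe of Vwf. None passed it downward (0.0135% of all tested probes), and the adjusted p-values of the other 13 lay between 0.154 and 0.708 (limma, Benjamini-Hochberg over all tested probes). At an unadjusted p under 0.05 there were 10 of the 14, 9 of them above 0 and 1 below, against 11.3% (2526) of all tested probes.

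The levels of the 4 samples separated for most of these probes. Levels are log2 values of each channel, normalized within and between arrays. In 9 of the 14 probes both mutant samples lay above both control samples, against 21.9% of all tested probes. The 9 include the dimmer Vwf probe, which was tested through its mutant signal alone, as neither control sample was well above background. That probe is also among those with ratios above 0 on both arrays. In 1, Kdr probe 1, both lay below them, against 15.6% of all tested probes. The mutant replicate 2 sample lay above the mutant replicate 1 sample in 13 of the 14, and the control replicate 2 sample above the control replicate 1 sample in 9. In bulk islet RNA, more endothelial cells and more RNA of these genes per endothelial cell cannot be told apart.

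**Figure D1:**
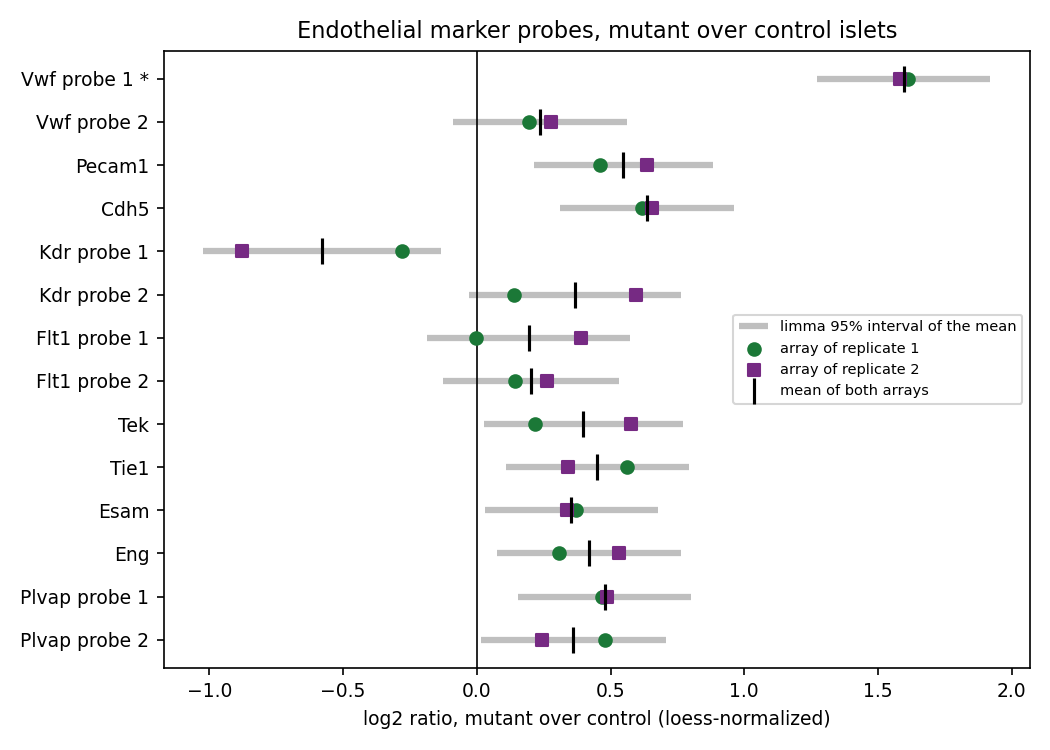
Log2 ratios of mutant over control for the 14 tested endothelial marker probes (circle, replicate 1 array; square, replicate 2 array; black bar, mean; grey band, limma's 95% interval of the mean). The asterisk marks Vwf probe 1, the probe with an adjusted p under 0.05 (0.0299), and Kdr probe 1 alone lies below 0 on both arrays.

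Vwf probe 1 stood apart from the other members. Its level was 9.40 in the mutant replicate 1 sample and 10.85 in the mutant replicate 2 sample, against 7.79 and 9.27 in the control samples of replicates 1 and 2. Both mutant samples lay above both control samples, although the lower mutant value exceeded the higher control value by little. The log2 ratios of mutant over control were 1.61 and 1.58, a mean of 1.60 ± 0.020 (SD, n = 2 arrays), or 3.02-fold with a 95% interval from 2.42 to 3.78 (limma, adjusted p = 0.0299). The ratios exceeded the median of the other 13 probes by 1.30 in replicate 1 and by 1.19 in replicate 2. Without it the median of the members' means was 0.37. The replicates also differed in the level of Vwf: the replicate 2 sample was higher than the replicate 1 sample by 1.45 in the mutants and by 1.48 in the controls.

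The call for Vwf depended on the form of the signals and of the fit. Its mean ratio lay between 1.60 and 2.41 under each alternative listed in the closing section, but the adjusted p was 0.172 once the prior was fitted by maximum likelihood, a form added after the data were seen. It was 0.148 without the normexp offset, 0.228 on the scanner software's own processed signals and 0.447 in a fit of the separate channels. None of these 4 forms called any probe of the array.

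Vwf probe 2 gave a much smaller ratio than probe 1. Its levels were 6.56 and 6.62 in the mutant samples, against 6.37 and 6.34 in the control samples, and it was not well above background in either control sample. Its log2 ratios were 0.19 and 0.28 (limma, adjusted p = 0.584), and the 95% interval of its mean ran from 0.939-fold to 1.48-fold, so no rise was shown. With the control level raised to the dimmest signal still above background, the measured mutant mean lay 1.14-fold above it, a value that carries no interval. The ratio of probe 1 exceeded that of probe 2 by 1.42 in replicate 1 and by 1.30 in replicate 2. The size for probe 2 varied with the processing. Relative to the median of all tested probes its mean was 0.23, and it was 0.65 without the offset, 1.09 on the scanner software's processed signals, 0.24 with no background subtraction and -0.25 with median centring.

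The junction genes had ratios above 0 on both arrays and did not pass the test. Cdh5, whose product VE-cadherin holds endothelial cells together, had levels of 7.78 and 8.31 in the mutant samples, against 7.16 and 7.65 in the control samples. Its log2 ratios were 0.62 and 0.66, the largest mean after Vwf probe 1 (0.64 ± 0.028, SD, n = 2 arrays, adjusted p = 0.154). The mutant samples lay above both controls. Pecam1, which encodes the adhesion molecule CD31, had levels of 7.59 and 7.94 in the mutant samples, against 7.13 and 7.31 in the control samples, and again the groups did not overlap. Its ratios were 0.46 and 0.64 (0.55 ± 0.13, adjusted p = 0.230). Esam had levels of 8.81 and 9.34 in the mutant samples, against 8.44 and 9.01 in the control samples. The control replicate 2 sample lay above the mutant replicate 1 sample, so the groups overlapped, while within each array the mutant was higher, by 0.37 and 0.34 (adjusted p = 0.399).

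**Figure D2:**
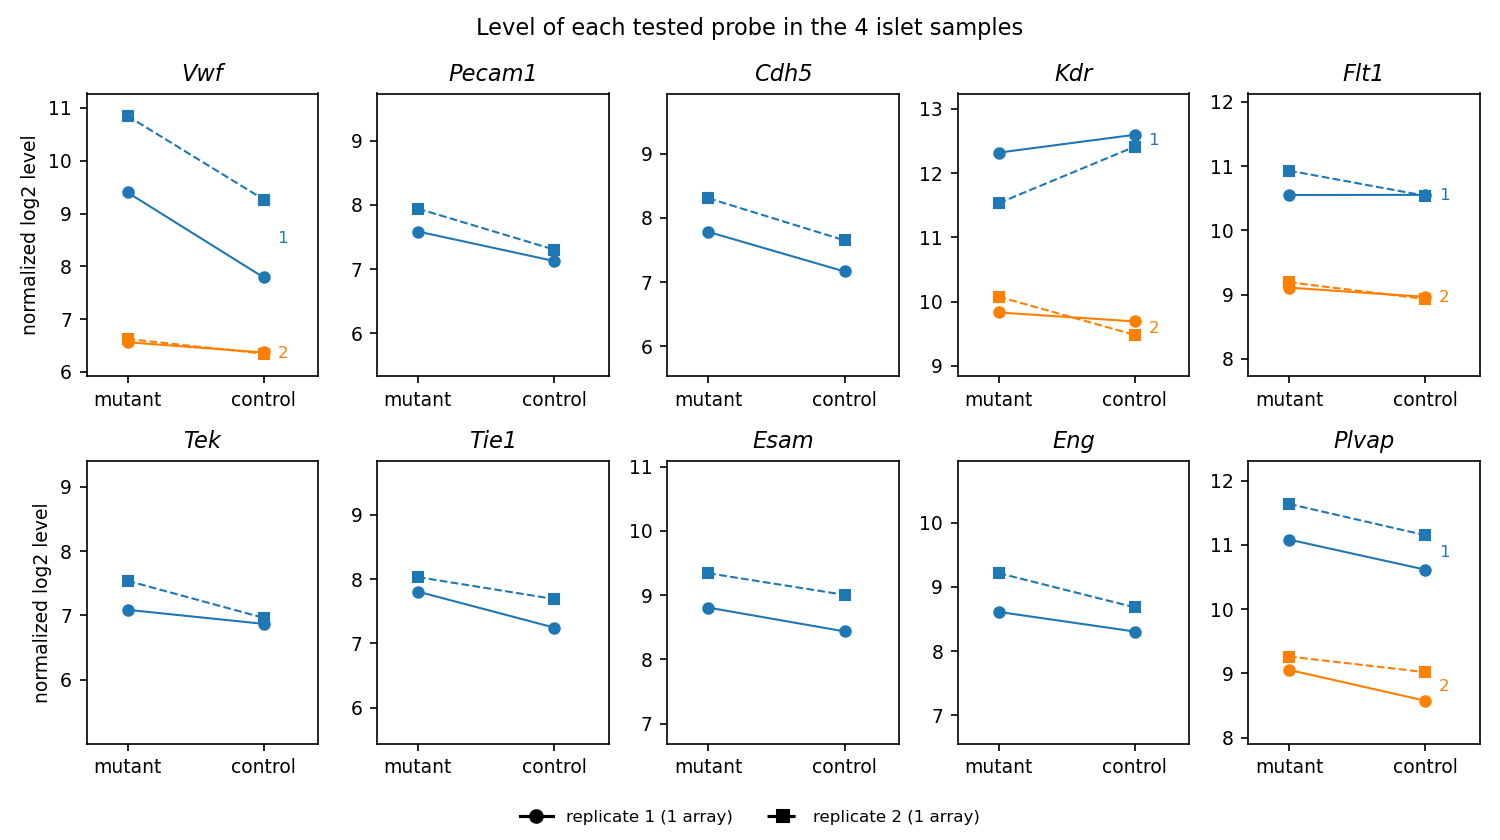
Normalized log2 level of each tested probe in the mutant (left) and control (right) samples, 1 panel a gene, with a line joining the 2 samples of 1 array (circle and solid line, replicate 1; square and dashed line, replicate 2). Numbers mark the probes of a gene; levels of different probes are not comparable, and the brighter Kdr probe is the one whose lines run upward to the control on both arrays.

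The probes of Kdr ran in opposite directions. Probe 1 had levels of 12.32 and 11.53 in the mutant samples, against 12.60 and 12.41 in the control samples. Both mutant samples lay below both control samples, and the log2 ratios were -0.28 and -0.88 (mean -0.58 ± 0.43, SD, n = 2 arrays, adjusted p = 0.321). Probe 2 had levels of 9.83 and 10.07 in the mutant samples, against 9.69 and 9.48 in the control samples. Here both mutant samples lay above both controls, with log2 ratios of 0.14 and 0.59 (mean 0.37 ± 0.32, adjusted p = 0.476). Neither direction passed the test, so no change of Kdr was shown in either direction.

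The gap between the Kdr probes was larger than the spread between spots of 1 array. Probe 2 was printed 10 times on each array, and its spots ran from 0.016 to 0.23 in replicate 1 (SD 0.069) and from 0.50 to 0.67 in replicate 2 (SD 0.062). All 10 lay above 0 on each array. The 243 tested probes printed 10 times had a median spot SD of 0.099 in replicate 1 and 0.091 in replicate 2. The ratio of probe 1, printed once, differed from that of probe 2 by -0.42 and -1.47. As the sequences above come from the same transcript, they differ in position and in base composition: probe 1 has 55% G and C, and probe 2 has 35%. The part of base composition in the gap was not tested. Where arrays were centred on their median and no loess was applied, the mean ratio of probe 1 turned to 0.36, but it still lay 0.27 below the median of all tested probes there, while probe 2 lay 0.59 above it.

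**Figure D3:**
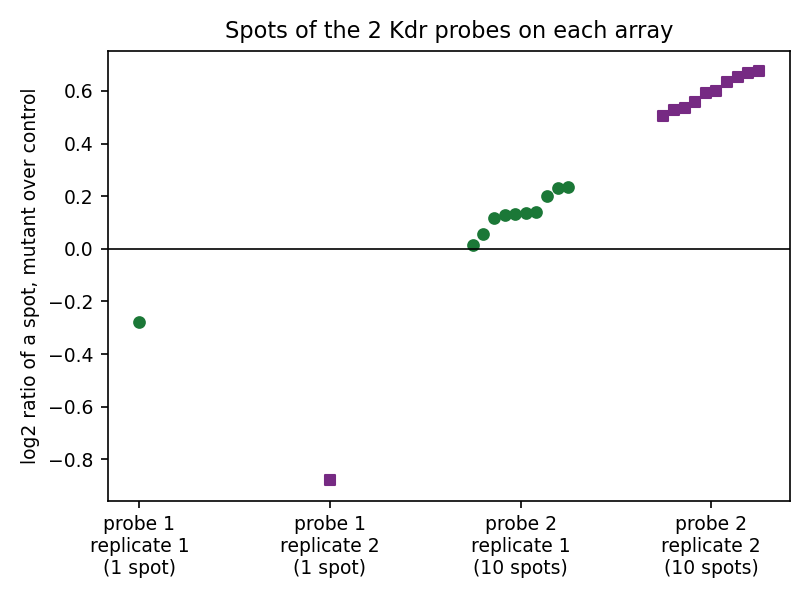
Log2 ratio of mutant over control for each spot of the Kdr probes, by probe and array, each symbol 1 spot (spread sideways in order of value for visibility). The 10 spots of probe 2 lie above 0 on both arrays, from 0.016 to 0.67, and the single spot of probe 1 lies at -0.28 and -0.88.

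The mean ratios of both tested probes of Flt1, the other VEGF receptor, were the closest to 0 of the members. Flt1 probe 1 had levels of 10.55 and 10.93 in the mutant samples, against 10.55 and 10.54 in the control samples. The mutant replicate 2 sample alone stood above the rest, and the ratios were -0.003 and 0.39 (mean 0.19 ± 0.28, adjusted p = 0.708). Flt1 probe 2 had levels of 9.11 and 9.19 in the mutant samples, against 8.96 and 8.93 in the control samples. These groups did not overlap, but the ratios of 0.14 and 0.26 were small (adjusted p = 0.646). The ratio of probe 1 differed from that of probe 2 by -0.15 and 0.13, so the probes of Flt1 showed no steady difference.

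The angiopoietin receptors had ratios of similar size. Tek had levels of 7.08 and 7.54 in the mutant samples, against 6.87 and 6.96 in the control samples, and log2 ratios of 0.22 and 0.58 (mean 0.40 ± 0.25, adjusted p = 0.406). Tie1 had levels of 7.81 and 8.03 in the mutant samples, against 7.25 and 7.69 in the control samples, and ratios of 0.56 and 0.34 (0.45 ± 0.15, adjusted p = 0.317). For both genes the mutant samples lay above the controls. The larger ratio was on the replicate 2 array for Tek and on the replicate 1 array for Tie1.

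Eng and Plvap also had ratios above 0 on both arrays. Eng had levels of 8.61 and 9.21 in the mutant samples, against 8.31 and 8.68 in the control samples, which overlapped, and log2 ratios of 0.31 and 0.53 (0.42 ± 0.16, adjusted p = 0.347). Plvap probe 1 had levels of 11.08 and 11.64 in the mutant samples, against 10.61 and 11.15 in the control samples, which overlapped as well. The 2 arrays were closer for it than for any other member, with ratios of 0.47 and 0.49 (0.48 ± 0.014, adjusted p = 0.273). Plvap probe 2 had levels of 9.05 and 9.26 in the mutant samples, against 8.57 and 9.02 in the control samples, without overlap, and ratios of 0.48 and 0.24 (adjusted p = 0.419). The 2 Plvap probes, unlike those of Vwf and Kdr, thus had the same sign and a like size.

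Genes of the same pathways were read from lists, with the brightest tested probe for each gene. The Tie and VEGF list held ligands, co-receptors and partners of these receptors, and also TGF-beta pathway genes such as Acvrl1, Tgfbr2, Smad7 and Id1. Of its 19 tested genes, 12 had ratios above 0 on both arrays (against 32.3% of all tested probes) and 1 below 0 on both (against 25.3%). None passed the test, which 0.355% of all tested probes passed upward. The largest means with 1 sign on both arrays were those of Vegfd (0.90 ± 0.34, SD, n = 2 arrays, adjusted p = 0.121), Vegfc (0.65 ± 0.061, adjusted p = 0.151) and Ptprb (0.59 ± 0.28, adjusted p = 0.252). Vegfd and Vegfc encode ligands of the lymphatic receptor Flt4, which was well above background in no sample, and Ptprb encodes the endothelial phosphatase VE-PTP, which acts on Tek. Angpt4, an angiopoietin, was the lowest at -0.52 ± 0.54 (adjusted p = 0.426). Of 18 tested endothelial transcription factors, 16 had ratios above 0 on both arrays and none below 0 on both. The shares of all tested probes were 32.3% and 25.3%, and the list medians were 0.32 and 0.31. Erg and Mef2c, among the 16, had only 2 samples well above background, as had Angpt1 and Tgfb1 among the 12 before. Such genes can count as bright enough to be tested through the higher channel alone. None of the 18 passed the test. The largest means were those of the hypoxia-inducible factor gene Epas1 (0.77 ± 0.29, adjusted p = 0.151), the flow-responsive Klf2 (0.62 ± 0.22, adjusted p = 0.199) and the ETS factor Fli1 (0.58 ± 0.33, adjusted p = 0.281).

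Among 58 other tested endothelial surface, junction and vessel genes, 47 had ratios above 0 on both arrays and 3 below 0 on both. The shares of all tested probes were 32.3% and 25.3%, and the list medians were 0.34 and 0.50. Selp, Dll4 and Stab2, among the 47, had only 2 samples well above background. Cd34, a sialomucin of capillary endothelium that some fibroblasts and blood progenitors also carry, was the 1 gene that passed the test. Its levels were 10.52 and 11.36 in the mutant samples, against 9.28 and 10.26 in the control samples, and its ratios were 1.24 and 1.11 (1.17 ± 0.093, adjusted p = 0.0448). The call rests on 1 probe, as the other Cd34 probe was not tested. Grrp1 had a larger mean with a wider spread (1.23 ± 0.63, adjusted p = 0.124), the phosphodiesterase gene Pde2a had 0.98 ± 0.39 (adjusted p = 0.114), and neither passed. The 3 below 0 were Lyve1 (-0.37 ± 0.25), a hyaluronan receptor of lymphatic endothelium and macrophages, the Notch ligand Jag2 (-0.33 ± 0.43) and Notch1 (-0.18 ± 0.10), with adjusted p-values from 0.445 to 0.696.

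All 8 tested genes of the endothelial basement membrane list had ratios above 0 on both arrays, against 32.3% of all tested probes. The list medians were 0.41 and 0.67. Sparc, a matrix glycoprotein that fibroblasts also make in quantity, passed the test. Its levels were 13.75 and 15.57 in the mutant samples, against 12.38 and 14.50 in the control samples, so the groups overlapped. Its ratios were 1.36 and 1.07 (1.22 ± 0.21, adjusted p = 0.0471), and its other tested probe gave 1.09 and 1.68 (adjusted p = 0.0554). Nid1, which links laminin to collagen IV, had a mean of 1.07 ± 0.11 (adjusted p = 0.0544), and the laminin gene Lama5 had 0.56 ± 0.32 (adjusted p = 0.287). The calls of Cd34 and Sparc ended with the same forms of the fit as that of Vwf.

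Markers of other cell types were read beside these values. Sums below are of unlogged normalized levels over all genes of a list on the array, in units of 1000. The fibroblast and stellate list was higher in mutant islets in 8 of 8 tested genes, against 32.3% of all tested probes, with medians of 2.62 and 1.73. The test was passed by 6 of the 8, against 0.355% of all tested probes. None passed in the forms of the fit that ended the call of Vwf. Pdgfra and Dpt, which did not pass, had only 2 samples well above background. The summed level of the list was 10.8 and 29.4 in the mutant samples, against 1.81 and 7.82 in the control samples. The samples thus fell in the same order for this sum as for Vwf probe 1, with mutant replicate 2 highest and control replicate 1 lowest. This order was not particular to them: Pecam1, Cdh5, Tek, Tie1 and Plvap probe 2 had it too. So did the summed platelet markers given below, a sum in which 6 of 10 genes were well above background in no sample. The pericyte and smooth muscle list had ratios above 0 on both arrays in 7 of 8 tested genes, against 32.3% of all tested probes, and no call. Abcc9, among the 7, had only 2 samples well above background. The medians of the list were 0.47 and 0.66. Its summed levels were 3.15 and 7.63 in the mutant samples, against 2.14 and 4.74 in the control samples. The part of these cells in the endothelial values was not tested.

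Platelets and megakaryocytes also make von Willebrand factor. Of their 10 markers, 6 (Gp1ba, Gp5, Gp6, Gp9, Itga2b and Ppbp) were well above background in no sample. The 4 tested markers had medians of 0.26 and 0.26, and the 10 together had summed levels of 0.872 and 0.959 in the mutant samples, against 0.751 and 0.836 in the control samples. Pf4, the highest of them in ratio, had 0.88 and 0.53 (adjusted p = 0.165). In the leukocyte list 4 of 8 tested genes had ratios above 0 on both arrays and 3 below 0 on both. The shares of all tested probes were 32.3% and 25.3%. Itgax and Lyz2, among the 4, had only 2 samples well above background. The summed levels of the list were 9.35 and 9.42 in the mutant samples, against 10.5 and 8.98 in the control samples. Of the lymphatic endothelial list 3 of 5 genes were tested: Pdpn, also a fibroblast gene, rose by 1.37 ± 0.21 (adjusted p = 0.0435), Prox1 had 0.37 ± 0.37 (adjusted p = 0.495) and Lyve1 lay below 0 as given above. The other Pdpn probe was not tested. Of the erythroid list 2 of 4 genes were tested, with list medians of -0.21 and -0.39. Hba-a1 had ratios of -0.45 and -0.72 (limma, adjusted p = 0.221), and Alas2 had 0.02 and -0.06 (adjusted p = 0.974).

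Exocrine markers differed strongly between samples. Acinar markers had medians of 0.48 in replicate 1 and -5.11 in replicate 2, with summed levels of 1459 and 103 in the mutant samples, against 1091 and 2535 in the control samples. The islet endocrine list had medians of -0.09 and 0.35. Its summed levels were 880 and 1200 in the mutant samples, against 800 and 739 in the control samples. The part of exocrine RNA in the endothelial ratios was not tested.

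**Figure D4:**
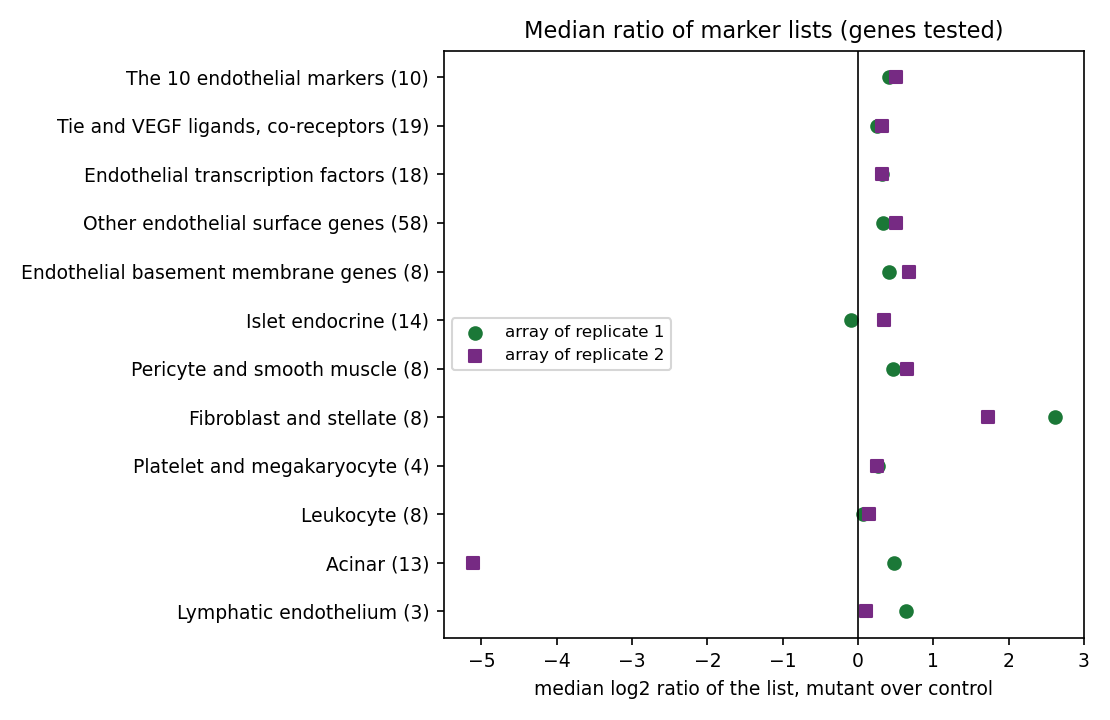
Median log2 ratio of mutant over control for lists of genes on the replicate 1 array (circle) and the replicate 2 array (square), with the number of tested genes in brackets and the brightest probe for each gene. The 10 markers, the 4 lists of further endothelial genes, the pericyte list and the platelet list lie between 0.25 and 0.67 on both arrays. The islet endocrine list lies at -0.09 and 0.35, the leukocyte list at 0.06 and 0.15, and the lymphatic list at 0.63 and 0.11. Fibroblast markers lie at 2.62 and 1.73, and acinar markers at 0.48 and -5.11. The erythroid list is not drawn.

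As most members lay on the same side, their promoters were searched for letters that endothelial ETS factors bind. RefSeq promoters (GRCm38.p6) were found for 5 of the 10 genes, and in the 250 bases before the start the core GGAA, read on both strands, occurred 7 times for Tie1, 4 times each for Kdr and Flt1, 3 times for Eng and 2 times for Tek. Of 32851 promoters of this length 93.4% hold it, with a median of 3 matches, so its presence is near that of any promoter. The core GATA occurred once each for Tek and Kdr (53.6% of promoters hold it), the letters GGGCGG 2 times for Kdr and 3 times for Flt1 (32.7%), and TATAAA once for Flt1 (12.4%). The sequence before Tie1, with the most ETS cores, is shown 5′ to 3′ on the gene's strand with those cores in capitals (chr4:118489850-118490099 of GRCm38.p6, minus strand).
Tie1: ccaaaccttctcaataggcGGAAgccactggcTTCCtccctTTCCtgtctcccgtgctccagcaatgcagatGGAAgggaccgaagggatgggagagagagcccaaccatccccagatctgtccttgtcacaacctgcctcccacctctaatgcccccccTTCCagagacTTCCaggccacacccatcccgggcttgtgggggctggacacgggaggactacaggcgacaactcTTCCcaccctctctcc

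The side on which most members lay held where ratios were computed in another way, while their sizes did not. With offset 0, no background subtraction, median centring or the scanner software's processed signals, 12 of the 14 probes lay above the median of all tested probes on both arrays. The series matrix, which holds the scanner software's ratios, gave 12 of 14 as well. The remaining forms kept the main ratios and changed only the fit or the filter, so their counts add nothing on the side. Those counts were 11 of 13 where both channels had to be above background and 12 of 15 with no filter on dim probes. Which probes these were was not the same throughout: with median centring Vwf probe 2 had a mean 0.25 below the median of all tested probes. Cdh5 kept a mean between 0.63 and 0.92 above that median in the plotted forms, and Vwf probe 1 one between 1.59 and 1.89.

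**Figure D5:**
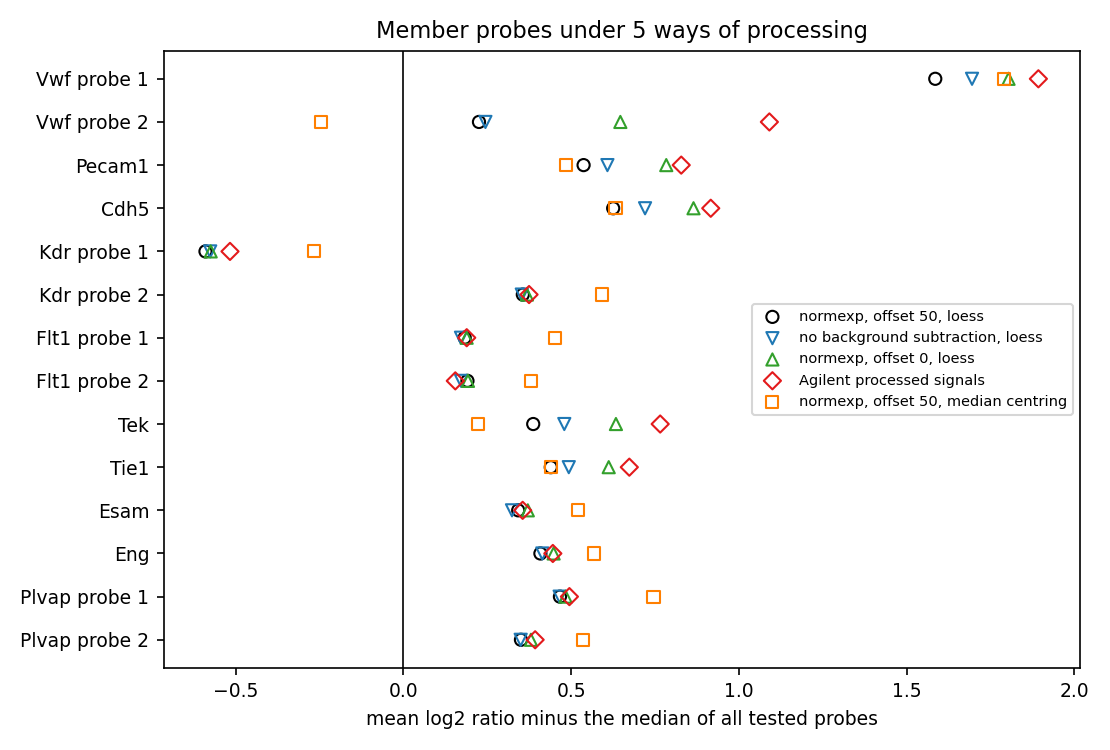
Mean log2 ratio of mutant over control, minus the median of all tested probes, for each endothelial marker probe under 5 ways of processing the same spots. Vwf probe 2 spreads most widely between the forms, from -0.25 to 1.09, and Kdr probe 1 lies below 0 in each.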

How the data were processed

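The scanner software was Agilent Feature Extraction, version 10.7.3.1 according to the submitters' processing notes. The deposited intensity values are each spot's mean signal, median local background and processed signal per channel, and the deposited log10 ratios are red over green, per the file headers. These log10 ratios recur unchanged in the deposited series matrix (largest difference 0, column medians 0 and 0).

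In limma 3.58.1 (R 4.3.3), signals were corrected by normexp (offset 50) and log2 ratios normalized by loess (span 0.3), with control and non-uniform spots left out (4 gene spots on each array) and 0 spots saturated. Probes well above background on both arrays, in either channel of each, had their 2 ratios tested against 0 (lmFit, eBayes, two-sided, threshold 0.05). Levels per channel were quantile-adjusted (Aquantile). Limma's prior had 4.89 degrees of freedom. In 1 simulation limma estimated more prior degrees of freedom than the ratios were drawn with, which lowers p-values, and a maximum-likelihood prior came close to the number drawn. The simulated ratios were drawn with the 4.89 that limma gave here, so the run does not settle the bias on these arrays. The maximum-likelihood prior gave 3.14 on the measured ratios and was added as an alternative after the data were examined. The members and gene lists were chosen with earlier results of these data known. Named genes are all member probes and, per endothelial list, genes that passed and up to 3 with the largest mean of 1 sign. Lists took names from files and RefSeq.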

Additional observations from a re-analysis of the deposited data

How the results depend on the processing

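No endothelial marker probe, no probe of the array and no gene of the endothelial and vascular lists (against 1, 82 and 2) was called by limma on Agilent's processed signals, with a normexp offset of 0, on the series matrix or in a separate-channel fit. At unadjusted p under 0.05 these forms gave 4, 7, 4 and 5 marker probes and 2350, 2470, 2354 and 2244 probes in all. The prior by maximum likelihood also called 0, 0 and 0, with 10 marker probes and 2338 probes in all at an unadjusted p under 0.05. This prior has fewer degrees of freedom and a scale fitted with them, and the part of each in the loss of calls was not tested. For the other forms the cause was not tested either. The counts were 12, 6735 and 69 with median centring, which left the tested probes' medians at 0.39 and 0.84, 2 marker probes (Cdh5 beside Vwf), 562 and 14 with a trended and robust prior, and 1, 355 and 12 without the filter on dim probes. The members' median moved to 0.46 with offset 0 and to 1.12 with median centring, and was 0.34 to 0.44 on single arrays. Kdr probe 1 turned to 0.36 with median centring. Counts without 1 array have no test. The test of the ratios within arrays is itself the paired analysis. Dim signal left Flt1 probe 3 untested and gave Vwf probe 2 a bound.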
